A study of Mus musculus with 3 samples.

Results

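The genes described here encode the proteins of the cytosolic ribosome. Members were all genes whose symbol is Rpl or Rps with a number and at most a short suffix, plus Rpsa, Rplp0, Rplp1 and Rplp2, without pseudogenes and without the copies whose symbol ends in l. The rule took 77 of the 55421 genes counted, 46 of the large subunit and 31 of the small subunit, and it used no measured value. All 77 had UMIs (unique molecular identifiers, each standing for 1 captured RNA molecule) in the cells.

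The data are 3 droplet libraries of liver cells, each from 1 wild-type mouse, made with the 10x Genomics 3' chemistry. All 3 mice ate an iron-deficient diet with 2 to 6 ppm iron for 1 week. The control mouse, IDD, stayed on it. Holo-transferrin, 10 mg into the tail vein, was given to IDD+HTF, and IDD+HID ate 2% carbonyl iron in its diet over 18 h. The series asks how the endothelial cells of the liver sinusoid sense iron that is not bound to transferrin. Age, sex and the time from injection to collection are not given in the labels. Livers were digested with collagenase and pronase, and 5% of a hepatocyte suspension was mixed with 95% of a suspension of the other cells, so class sizes also reflect that mixing.

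A ribosome joins ribosomal RNA with a set of small basic proteins, most of them present in 1 copy per ribosome, so the cell makes these proteins in matched amounts. Their mRNAs begin with a C followed by a tract of pyrimidines at the 5' end, the TOP element, through which the kinase mTOR and the binding protein LARP1 set how well they are translated. In the liver, ribosomal protein mRNA is made by hepatocytes, by the cells that line the sinusoids and by resident immune cells. Small resting lymphocytes, which carry little other mRNA, are known for a large share of it in single-cell data.

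To look for the TOP element at the members' starts, 300-base RefSeq promoter windows on GRCm38.p6 were read, which gave entries for 57 of the 77 members. The 30 bases printed below are a part of that window, and a stretch that was counted can lie partly or wholly outside them. The stretch searched was at least 8 unbroken pyrimidines (C or T), read from a C that no other C precedes and that lies within 20 bases of the start. Pyrimidines that begin with T may come directly before it. It was found for 30 of 57 members (52.6%) and for 16.4% of the 27025 genes in the table. The letters CCGGAA, a core that ETS factors bind, were found on either strand of the 300-base window for 32 of 57 members (56.1%) and for 16.7% of all genes. The reverse complement TTCCGG can overlap the end of a pyrimidine run. The sequences below are those of Rps6, the substrate of S6 kinase, and of members with large gaps between classes or libraries in the results that follow. Each is 5' to 3' on the gene's strand, 15 bases upstream and 15 from the start of the first exon, with 1 such stretch in capitals, the one whose first C is nearest to the start. Bases in lower case just before it, or elsewhere in the window, can also be pyrimidines.
Rps6, chr4:86857353-86857382, minus strand: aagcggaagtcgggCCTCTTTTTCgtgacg
Rps27, chr3:90213634-90213663, minus strand: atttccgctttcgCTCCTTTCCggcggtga
Rps15a, chr7:118116133-118116162, minus strand: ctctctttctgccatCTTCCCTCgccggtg
Rpl28, chr7:4792950-4792979, plus strand: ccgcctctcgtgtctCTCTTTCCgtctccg
Rpl7a, chr2:26910792-26910821, plus strand: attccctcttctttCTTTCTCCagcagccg
Rplp0, chr5:115559452-115559481, plus strand: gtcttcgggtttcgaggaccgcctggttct
The first 5 hold such a stretch near the start. These sequences were picked and do not stand for the set, where 52.6% of the members with an entry had one. No such stretch was found for Rps2, Rpl24, Rps13 and Rpl36a, which also differ widely between libraries and are not printed. The window of Rplp0, the P0 stalk protein, holds none of that length, which says only that these letters are not in it.

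The libraries of IDD, IDD+HTF and IDD+HID held 34552858, 55478904 and 75404660 UMIs, and 1311, 3203 and 3538 cells passed the filters. The groups differ in depth, and near-empty droplets, those of at most 100 UMIs, took up 10.9%, 3.94% and 3.36% of these totals. Doublet calls came to 1.72%, 0.156% and 0.197% of barcodes. With at least 2000 UMIs per cell the same caller marked 2.36% in IDD+HTF, and with at most 10% mitochondrial UMIs 2.15% in IDD+HID, so doublets may remain. Each pair of libraries shared 1 cell barcode. Cells were clustered without the members and without the other gene lists used here, and clusters were named from fixed markers of other genes, so the names end in "-like". Summed markers separated some classes widely: the 9 Kupffer markers reached 23829 to 28189 CPM (UMI counts rescaled to the same total, 1e+06, in every class) in Kupffer-like cells and 6.73, 86.4 and 414 CPM in T-like cells of IDD, IDD+HTF and IDD+HID. Other classes were less clean, with Kupffer markers at 1031, 6027 and 1900 CPM in conventional dendritic-like cells. The 9 sinusoidal endothelial markers summed to 2153, 6491 and 8048 CPM in stellate-like cells and 15390.5 to 21893.2 CPM in the endothelial class. With 1 mouse per group no difference between mice has a replicate check, and every interval below covers counting error only.

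The share of a class's UMIs that the 77 members held differed widely between classes. In T-like cells of IDD it was 17.1%, of IDD+HTF 18.0% and of IDD+HID 16.7%, over 75, 132 and 256 cells. In B-like cells it was 17.3%, 17.4% and 15.9%, over 91, 180 and 462 cells. Kupffer-like cells, the resident macrophages, held 5.06%, 5.42% and 5.62%, over 87, 373 and 532 cells. Lymphocytes were thus above Kupffer-like cells in all 3 libraries with no overlap, T-like cells by 3.39-, 3.32- and 2.98-fold and B-like cells by 3.41-, 3.21- and 2.83-fold. This contrast was in view when the members were chosen and is given without a test.

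Most other immune classes lay between these levels. Conventional dendritic-like cells, cluster 18, held 13.10%, 13.02% and 13.34%. The genes that lead this cluster are mostly those of dividing cells, Top2a and Mki67 among them, and 1 of its fixed dendritic markers, Xcr1, is in the top 10. The shares were 11.59%, 12.02% and 10.67% in plasmacytoid dendritic-like cells, 10.05%, 12.01% and 10.87% in monocyte or macrophage-like cells, and 11.3%, 10.4% and 11.2% in NK or ILC1-like cells. These 3 classes overlapped in their ranges. Neutrophil-like cells, at 2.13%, 3.23% and 1.84% over 14, 16 and 33 cells, were the lowest of the immune classes. In droplets with 100 or fewer UMIs, which hold free RNA, the members made up 1.18%, 1.87% and 2.95%, below every immune class of the same library except the neutrophil-like cells of IDD+HID.

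The order of classes by share was not the order by amount per cell. The median member UMIs per cell were 998, 901.5 and 1146 in T-like, 714, 647.5 and 743.5 in B-like, and 493, 832 and 896.5 in Kupffer-like cells. B-like cells thus held 1.45-, 0.778- and 0.829-fold as many member UMIs per cell as Kupffer-like cells, below them in both treated libraries. Median total UMIs were 4041, 3600.5 and 4570 in B-like and 11832, 16181 and 16482.5 in Kupffer-like cells. Cluster 18, the conventional dendritic-like cells led by genes of cell division, had the highest medians of the named classes plotted, with 2194, 2368 and 3108 member UMIs.

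**Figure D1:**
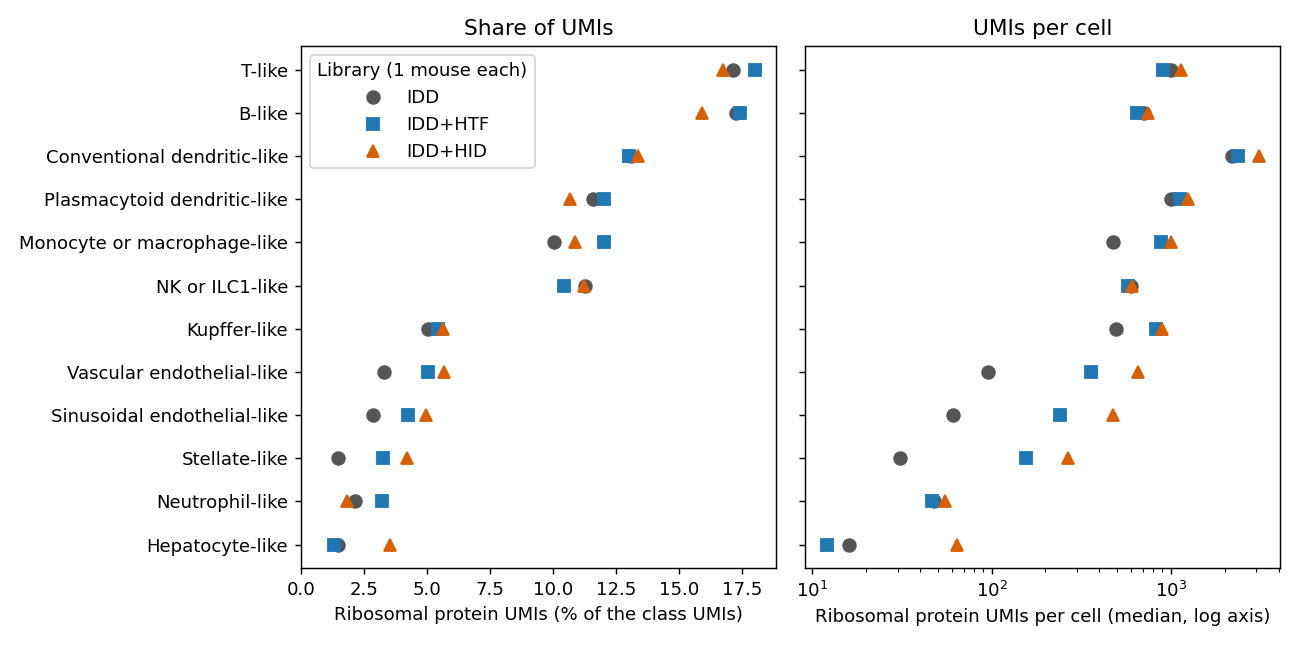
Left, the share of each class's UMIs held by the 77 ribosomal protein genes (horizontal axis, percent); right, the median member UMIs per cell (horizontal log axis), by cell class in rows, with 1 symbol per library. T-like and B-like cells lie between 15.9% and 18.0% and Kupffer-like cells between 5.06% and 5.62% on the left, while on the right B-like and Kupffer-like cells overlap.

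Single cells showed the same separation. The 90th percentile of the share among Kupffer-like cells was 6.54%, 7.57% and 7.17%, and 88.0%, 83.3% and 86.7% of T-like cells lay above it. Of B-like cells, 93.4%, 96.1% and 94.6% did. Of sinusoidal endothelial-like cells, 3.06%, 6.61% and 10.8% did. T-like cells fell into 2 clusters that differed in share. Cluster 10, led by Lef1, Tcf7 and Il7r, which mark naive and memory T cells, held 24.9%, 23.2% and 22.6% over 14, 45 and 68 cells. Cluster 17, led by Cxcr6 and Ifng, genes of tissue-resident effector T cells, held 15.5%, 15.4% and 14.5% over 61, 87 and 188 cells. The ranges of these clusters did not overlap, and the leading genes were picked after the clusters were seen.

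The gap between lymphocytes and Kupffer-like cells ran through nearly the whole set. Of the 77 members, 75 were at least 1.5-fold higher in T-like than in Kupffer-like cells in each of the 3 libraries, against 20.0% of the 4543 genes measured in that pair. The median member differed by 1.78 on the log2 scale. B-like cells gave 75 of 77 as well, against 18.4% of 4288 genes, with a median of 1.72.

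Rps27, a small zinc-finger protein of the 40S subunit, was among the members with the widest gap. It stood at 1728, 4568 and 1576 CPM in T-like, 2273, 5814 and 1909 CPM in B-like and 297, 706 and 383 CPM in Kupffer-like cells of IDD, IDD+HTF and IDD+HID, 5.83-, 6.47- and 4.12-fold higher in T-like cells. Of the 31-base words in the last 400 bases of its transcript, 98.7% also occur elsewhere in the annotated transcripts, and how the counting treated such reads is not given in the sources used here. Rpsa, the laminin-receptor protein of the small subunit, stood at 4233, 2637 and 3675 CPM in T-like and 740, 429 and 749 CPM in Kupffer-like cells. Rps19, mutated in Diamond-Blackfan anemia in humans, reached 4664, 2910 and 3915 CPM in B-like and 748, 492 and 792 CPM in Kupffer-like cells.

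Members without any such shared word in the transcript used showed the gap too. That transcript was long, with 1613 bases for Rps24, 1908 for Rps3 and 5130 for Rps15a, of which 399, 729 and 390 are coding. Which 3' end the counted reads came from was not tested. Rps24 stood at 8172, 8006 and 9314 CPM in T-like, 9184, 7863 and 9176 CPM in B-like and 1634, 1420 and 2045 CPM in Kupffer-like cells. Rps3, which lines the mRNA entry channel, stood at 3681, 3232 and 3660 CPM in T-like and 845, 787 and 1065 CPM in Kupffer-like cells. Rps15a was 6.80-, 5.68- and 4.68-fold higher in T-like than in Kupffer-like cells. For these 3 genes every lymphocyte value lay above every Kupffer value.

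Rps29 and Rpl10 were the pair outside the 75 in T-like cells. Rps29, a zinc-finger protein of the small subunit, stood at 6082, 11798 and 6135 CPM in T-like and 4577, 7596 and 4687 CPM in Kupffer-like cells, 1.33-, 1.55- and 1.31-fold higher. It made up 9.05%, 14.0% and 8.34% of all member UMIs in Kupffer-like cells and 3.55%, 6.55% and 3.67% in T-like cells. Rpl10, an X-linked protein near the peptidyl transferase centre, stood at 74.1, 105 and 60.5 CPM in T-like and 46.2, 49.7 and 42.7 CPM in Kupffer-like cells, and all of its 31-base words occur elsewhere. Rplp1, a stalk protein, was 1.92-, 1.55- and 1.69-fold higher in B-like than in Kupffer-like cells.

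Levels also differed between members. CPM counts 3' ends and is not divided by length. Over all cells the median member stood at 724 CPM, the highest were Rps29 at 4368, Rps24 at 2811 and Rpl37a at 2292 CPM over all libraries and classes pooled, and the lowest Rpl5 at 26.7, Rpl12 at 28.7 and Rpl10 at 44.8 CPM. The 17 members with 90 to 100% of their 31-base words shared had a median of 221 CPM, the 34 with 50 to 90% shared 883 CPM, and the 26 with less shared 758 CPM. The order differs between classes: in T-like cells Rps24 stood above Rps29 in IDD and IDD+HID and below it in IDD+HTF. How reads with shared words were assigned is unknown here, and its part in the level of the first set was not tested. Rpl5, the partner of Rpl11 in the 5S particle that binds Mdm2, had no shared word at the end of the transcript used, of 2045 bases. The 300 annotated pseudogenes named after members held at most 0.0702% of the UMIs of a named class.

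Whether T-like and B-like cells differ from each other was tested with edgeR's quasi-likelihood test over 13502 genes, on class sums with the library as a block. None of the 77 members rose and none fell at an adjusted p under 0.05, and 0 reached an unadjusted p under 0.05; DESeq2 also called 0. Over all genes, 9.58% were higher and 6.98% lower in T-like cells. The median member differed by 0.06 on the log2 scale. The widest differences were those of Rpl13a, at 0.51 ± 0.31 (SE, 3 libraries, edgeR adjusted p = 0.315), and of Rplp0, at 0.46 ± 0.36, and on the other side of Rps27 at -0.35 ± 0.42 and Rps25 at -0.33 ± 0.36. Rpl13a stood at 263, 368 and 207 CPM in T-like and 181, 247 and 158 CPM in B-like cells.

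Few genes of the other translation lists passed the test between the lymphocytes. Of 23 translation factors and other TOP mRNAs 1 fell in T-like cells, Nap1l1, a histone chaperone, at -1.30 ± 0.28. None of the 28 ribosome biogenesis genes passed the test. Of 22 genes that act on ribosomal protein mRNA, 2 rose and 2 fell. Mxd1, a MYC antagonist, rose by 2.31 ± 0.36 and Myc fell by 1.41 ± 0.31. Of 75 mitochondrial ribosomal proteins, which serve the separate ribosome of the mitochondrion, 2 rose and 1 fell.

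Sinusoidal endothelial-like cells held 2.88%, 4.24% and 4.94% of UMIs in members, over 359, 772 and 1099 cells, against 5.06%, 5.42% and 5.62% in Kupffer-like cells, so they were lower within each library. Of the 77 members none rose and 4 fell in the endothelial class (edgeR, adjusted p under 0.05), while 30.3% of all genes were higher and 15.7% lower. Those 4 were Rpl10a at -0.96 ± 0.29 (SE, 3 libraries, edgeR adjusted p = 0.00744), Rps29 at -0.99 ± 0.40 (0.0458), Rps9 at -0.98 ± 0.40 (0.0466) and Rpl3 at -0.78 ± 0.31 (0.0430). Rpl10a is the L1 stalk protein, and Rpl3 reaches the peptidyl transferase centre. Rps9 stood at 444, 585 and 915 CPM in the endothelial class and at 1257, 1065 and 1326 CPM in Kupffer-like cells, without overlap. Without the IDD library, and without the IDD+HTF library, 0 members passed, while other scalings called 23 (edgeR with TMM) and 36 (DESeq2), all lower.

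Around the members, 1 of 23 TOP mRNAs fell in the endothelial class, Pabpc1, the poly(A)-binding protein, at -1.05 ± 0.31. Of 28 biogenesis genes 1 rose and 6 fell, among them Polr1a, the large subunit of RNA polymerase I, at -1.71 ± 0.32, and Nop10, of the pseudouridine particles, at -1.45 ± 0.35. Myc fell by 2.90 ± 0.32. Of 75 mitochondrial ribosomal proteins 1 rose and 8 fell.

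Stellate-like cells, the vitamin A storing pericytes of the liver, held 1.46%, 3.25% and 4.22%, over 133, 129 and 104 cells, below the endothelial class of the same library each time. No member rose or fell against the endothelial class in edgeR, where 13.4% of all genes were higher and 8.32% lower. That does not show equal levels: of 74 measured members, 63 were lower in each of the 3 libraries and 11 had mixed signs. Rps6 alone reached an unadjusted p under 0.05, at -0.76 ± 0.30 (SE, 3 libraries, edgeR adjusted p = 0.0682), and DESeq2 called 2 members lower. The median member differed by -0.42 on the log2 scale and all genes by -0.02. Rps6 stood at 28.5, 35.8 and 63.8 CPM in stellate-like and at 70.5, 55.9 and 95.8 CPM in endothelial cells. Of the other lists, Polr1a rose by 1.31 ± 0.36, Rragd, a GTPase that activates mTORC1, by 4.15 ± 0.37 and Myc by 2.01 ± 0.33, and none of 23 TOP mRNAs passed.

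Hepatocyte-like cells held 1.46%, 1.30% and 3.54%, over 245, 1032 and 260 cells. These cells were shallow, with medians of 2117, 2153 and 2247 total UMIs and 16, 12 and 64 member UMIs. Ribosomal RNA and repeats took 22.2%, 27.6% and 5.96% of their UMIs. The clusters of this class differed: cluster 2 held 0.783%, 0.526% and 0.850%, cluster 7 0.620%, 0.595% and 2.22%, and cluster 6 3.39%, 4.47% and 4.20%. Cluster 6 was above the endothelial class in IDD and IDD+HTF, at 2.88% and 4.24%, and below its 4.94% in IDD+HID. The tests that follow use the whole class. Against the endothelial class 42 of 77 members fell and none rose in edgeR with class totals as the scale, where 68.7% of all genes were lower and 11.4% higher. The median gene was lower by more than the median member, -2.13 against -0.87 on the log2 scale. Scaled to the bulk of genes instead, the direction turned: 39 members were higher and 0 lower with TMM, and 44 higher and 0 lower with DESeq2. Without the IDD+HTF library 3 members fell instead of 42, and without IDD+HID 61 did.

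Within that shift the members were not uniform. Rps27 was lowest, at -2.15 ± 0.45 (SE, 3 libraries, edgeR adjusted p = 9.22e-05), with 43.5, 114 and 188 CPM in hepatocyte-like against 239, 960 and 490 CPM in endothelial cells. Rps29 followed at -1.85 ± 0.41, with 438, 743 and 1173 CPM against 2026, 4115 and 2578 CPM. Rps2, at 0.60 ± 0.35, Rpl10a, at 0.28 ± 0.30, and Rpsa, at 0.22 ± 0.33, did not pass. Rps2, a core protein of the small subunit, stood at 591, 190 and 1151 CPM in hepatocyte-like and at 306, 168 and 721 CPM in endothelial cells, higher in each library. Of the other lists in the same fit, 22 of 28 biogenesis genes and 11 of 23 TOP mRNAs fell, while mitochondrial ribosomal proteins went both ways with 20 of 75 higher and 10 lower. Mrpl12 rose by 1.85 ± 0.28.

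The makeup of the pool, each member as a share of all member UMIs, cancels the total and showed where classes differ in proportion. The widest gaps between the ranges of 3 libraries involved hepatocyte-like cells. Rpl28 made up 0.730 to 1.03% of the pool in hepatocyte-like and 0.322 to 0.394% in T-like cells, 0.89 apart on the log2 scale. Rps15a went the other way, with 1.38 to 2.05% in T-like and 0.667 to 0.802% in hepatocyte-like cells. Rplp0 made up 2.06 to 2.15% in hepatocyte-like and 1.01 to 1.22% in endothelial cells. Rpl28 and Rps15a had no shared 31-base word in the last 400 bases of the transcript used, of 1106 and 5130 bases, and Rplp0 had 23.5%. The starts of Rpl28 and Rps15a, printed above, both carry the pyrimidine stretch, while that of Rplp0 does not.

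Paralogs outside the rule took very different parts of their pair. Rps27l, a p53-induced copy of Rps27, held 4.11%, 1.98% and 6.62% of the pair's UMIs in T-like and 2.54%, 1.00% and 4.49% in B-like cells, but 50.2%, 24.8% and 37.8% in Kupffer-like and 84.4%, 63.2% and 77.3% in hepatocyte-like cells. The ranges of lymphocytes and hepatocyte-like cells lay far apart. Against the endothelial class Rps27l was higher in hepatocyte-like cells, by 0.76 ± 0.32 on the log2 scale (SE, 3 libraries, edgeR adjusted p = 0.0319), while Rps27 was lower with class totals as the scale. With TMM Rps27 did not pass, at -0.61 ± 0.38 (edgeR adjusted p = 0.161), and Rps27l was higher by 2.35 ± 0.29, and DESeq2 gave -0.64 ± 0.38 (adjusted p = 0.130) and 2.33 ± 0.25. In every one of the 6 classes the lowest part of Rps27l was that in IDD+HTF, where Rps27 itself was highest in 5 of them.

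Rpl36al, the autosomal copy of the X-linked Rpl36a, held 47.8%, 20.7% and 44.3% in T-like, 67.1%, 34.4% and 57.2% in Kupffer-like and 82.9%, 54.2% and 80.0% in hepatocyte-like cells. It was again lowest in IDD+HTF within each class. All 31-base words of Rpl36a occur elsewhere, so this ratio depends on how the counting split such reads. Rpl7l1, a biogenesis factor that resembles Rpl7, held 1.47%, 5.31% and 3.63% in T-like and 10.4%, 18.9% and 9.86% in Kupffer-like cells, highest in IDD+HTF. Rpl10l, of the testis, had 0 UMIs in these 6 classes in all 3 libraries.

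**Figure D2:**
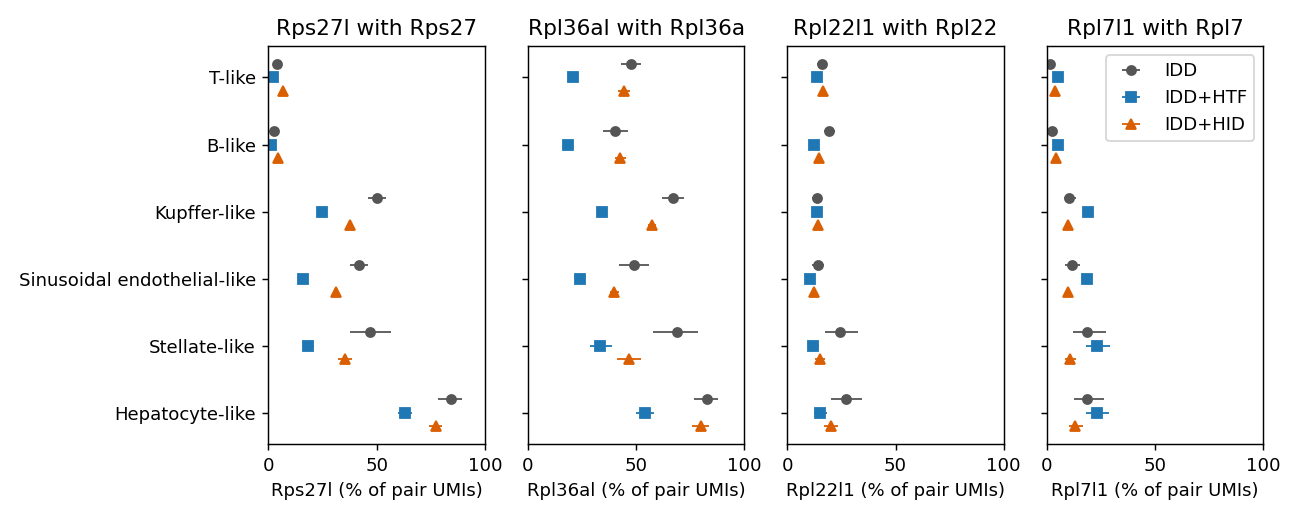
Part of a pair's UMIs that belong to the paralog (horizontal axis, percent), for 4 pairs, by cell class in rows, with 1 symbol per library and exact 95% binomial intervals. For Rps27l the lymphocyte points lie between 1.00% and 6.62% and the hepatocyte-like points between 63.2% and 84.4%, and IDD+HTF is lowest in each class.

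Setting IDD+HTF against IDD asks what iron carried by transferrin goes with, and setting IDD+HID against IDD what iron from the diet does. Both use the same IDD library. In T-like, B-like and Kupffer-like cells the summed share lay close to that of IDD: IDD+HTF over IDD was 1.05-fold (95% interval 1.04 to 1.06), 1.01-fold (1.00 to 1.02) and 1.07-fold (1.06 to 1.08), and IDD+HID over IDD was 0.976-fold (0.968 to 0.984), 0.920-fold (0.913 to 0.928) and 1.11-fold (1.10 to 1.12). Within the T-like clusters IDD+HTF over IDD was 0.934-fold in cluster 10 and 0.995-fold in cluster 17, below 1-fold in both, and cluster 10, the one with the higher share, held 14 of 75, 45 of 132 and 68 of 256 T-like cells. The Kupffer-like class was also filled unequally: cluster 3, with 7 Kupffer markers among its top 10 genes, held 75, 285 and 229 cells, and cluster 22, led by Cxcl2 and Il1b with 0 such markers there, held 12, 88 and 303. The ratios were 1.10- and 1.09-fold in cluster 3 and 1.03- and 1.21-fold in cluster 22 for IDD+HTF and IDD+HID. In sinusoidal endothelial-like cells the treated libraries, IDD+HTF first, had summed shares 1.48-fold (1.46 to 1.49) and 1.72-fold (1.70 to 1.74) that of IDD. In stellate-like cells it was 2.22-fold (2.18 to 2.27) and 2.89-fold (2.83 to 2.95). In hepatocyte-like cells it was 0.892-fold (0.872 to 0.913) and 2.43-fold (2.38 to 2.49). With mitochondrial genes, ribosomal RNA and repeats left out of the total, hepatocyte-like cells gave 0.936- and 1.90-fold. On that scale endothelial cells gave 1.39- and 1.58-fold and stellate-like cells 2.12- and 2.70-fold.

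**Figure D3:**
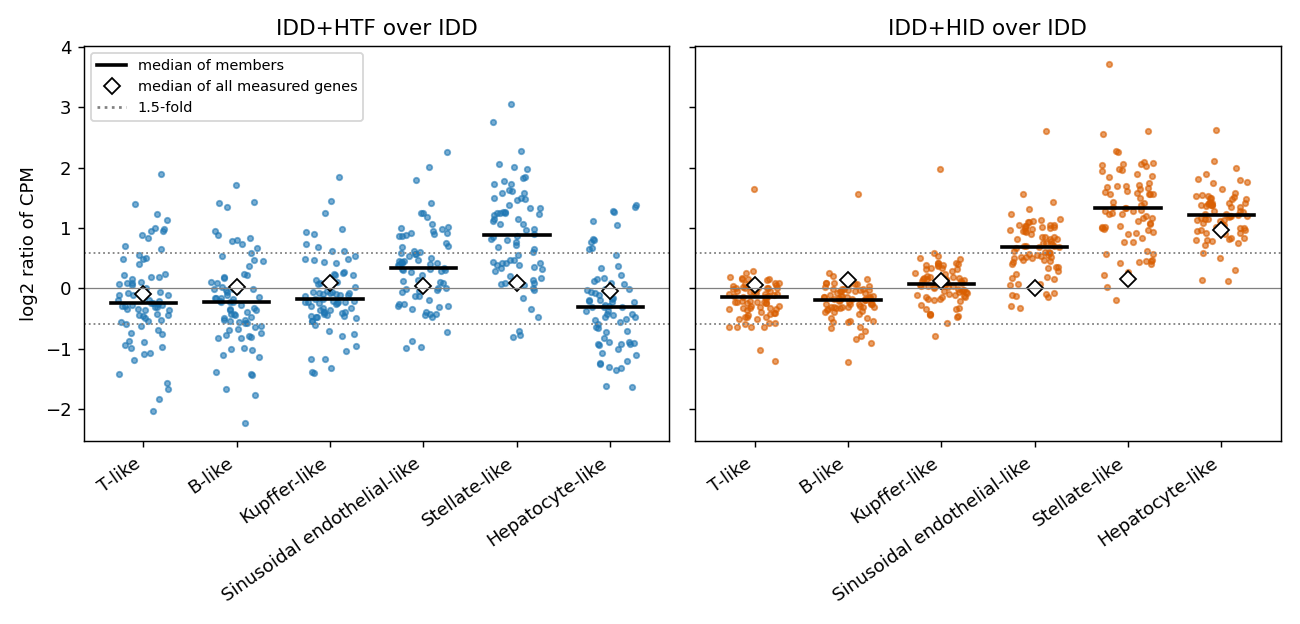
Log2 ratio of CPM between a treated library and IDD (vertical axis) for each measured member, by cell class, with IDD+HTF on the left and IDD+HID on the right. Each point is 1 member, the black line is the median of the members, the diamond the median of all measured genes and the dotted lines mark 1.5-fold. The members' median lies at 0.34 and 0.69 in sinusoidal endothelial-like cells, where the median gene lies at 0.04 and 0.01.

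The endothelial class, which the series is about, had 24 of 77 members at least 1.5-fold higher in IDD+HTF than in IDD, against 10.4% of 10380 genes, and 4 lower, against 9.61%. In IDD+HID it had 44 higher, against 15.3% of 11876 genes, and 0 lower, against 19.1%. The median member differed by 0.34 and 0.69 on the log2 scale and the median gene by 0.04 and 0.01. Rps3a1, a 40S protein, stood at 404, 550 and 1200 CPM (IDD, IDD+HTF, IDD+HID), Rps4x at 385, 530 and 1042 CPM, and Rps14 at 718, 1168 and 1794 CPM. All 3 were lowest in IDD and highest in IDD+HID. Of the 23 other TOP mRNAs, 6 were higher in IDD+HTF and 16 in IDD+HID, and their summed level was 6733, 8804 and 12927 CPM. The 28 biogenesis genes summed to 1182, 1206 and 1345 CPM, with 1 and 2 of the measured ones higher.

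Depth moved with this difference. Median UMIs per endothelial cell were 3132, 6081 and 9800, ribosomal RNA and repeats took 7.78%, 4.86% and 2.93% of the class, and the 10 hepatocyte markers, all detected in each library, summed to 1137, 1469 and 1644 CPM. The 9 Kupffer markers summed to 68.2, 83.8 and 115 CPM, with Marco and Folr2 at 0 in IDD and Folr2 at 0 in IDD+HTF. Among endothelial cells of 4000 to 8000 UMIs alone, the share was 3.37%, 3.95% and 4.13% over 97, 367 and 196 cells. There 14 of 76 members were higher in IDD+HTF, against 11.0% of 7323 genes, and 11 lower, against 7.51%. In IDD+HID 11 of 74 were higher, against 12.6% of 5720 genes, and 0 lower, against 6.92%. At 8000 to 16000 UMIs the share was 4.22%, 4.62% and 4.97% over 15, 219 and 680 cells. There 14 of 75 members were higher in IDD+HTF, against 22.6% of 6922 genes, and 15 lower, against 12.8%. In IDD+HID 10 of 77 were higher, against 26.9% of 10221 genes, and 1 lower, against 17.8%. The members' counts of higher genes in IDD+HID were thus near or below the background within both bands. The order of the libraries was the same within both bands, and the gap was smaller than over all cells. Below 4000 UMIs it was wider, with 2.20%, 3.40% and 6.46% at 2000 to 4000 UMIs. At 1000 to 2000 UMIs the share was 1.91%, 7.40% and 9.22%, over 67, 43 and 61 cells. In both treated libraries the shallowest endothelial cells thus held the highest share, and in IDD the lowest. Kupffer-like cells of 4000 to 8000 UMIs held 3.53%, 4.06% and 3.87%, and those of 8000 to 16000 UMIs 4.72%, 4.76% and 5.08%, so the share differed with depth there too.

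**Figure D4:**
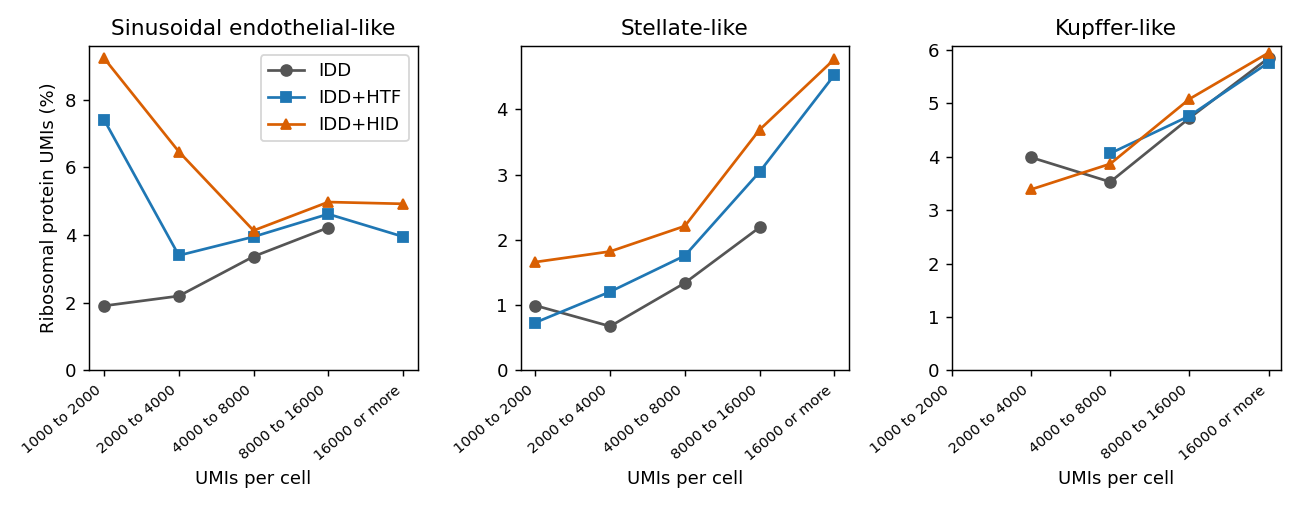
Share of UMIs held by the members (vertical axis, percent, with its own scale in each panel) against the UMIs per cell in bands (horizontal axis), for 3 classes, with 1 line per library; bands with under 10 cells are left out. In endothelial cells of 4000 to 8000 UMIs the share is 3.37%, 3.95% and 4.13% in IDD, IDD+HTF and IDD+HID, and in Kupffer-like cells of 16000 or more UMIs it is 5.85%, 5.76% and 5.95%.

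The endothelial class was made of 2 clusters that the libraries filled unequally. Cluster 1 held 297, 354 and 424 cells with shares of 2.70%, 4.24% and 5.20%. Cluster 11, led by Cxcl10 and Apold1, held 62, 418 and 675 cells with 3.43%, 4.24% and 4.84%. Both showed the lowest share in IDD and the highest in IDD+HID. In cluster 1 alone 55 of 77 members were higher in IDD+HID, against 18.7% of 8398 genes, and 0 lower, against 13.3%. In cluster 11 alone 25 of 77 members were higher in IDD+HID, against 23.0% of 10521 genes, and 1 lower, against 17.6%. In IDD+HTF cluster 1 had 32 of 76 higher, against 11.8% of 7582 genes, and 4 lower, against 7.37%. Cluster 11 had 16 of 77 higher there, against 18.1% of 8361 genes, and 10 lower, against 10.0%.

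Stellate-like cells, a single cluster, had 46 of 74 measured members higher in IDD+HTF, against 22.1% of 6324 genes, and 3 lower, against 10.5%. In IDD+HID 63 of 75 were higher, against 29.7% of 6645 genes, and 0 lower, against 15.9%. Rps4x stood at 149, 414 and 911 CPM, Rps3a1 at 167, 369 and 985 CPM and Rps9 at 162, 459 and 790 CPM, in the same order of libraries as in the endothelial class. These too were picked from the 5 highest IDD+HID over IDD ratios of their class. The other TOP mRNAs summed to 3671, 6123 and 9980 CPM. Markers of other cells differed too: the 9 sinusoidal endothelial markers, all detected, summed to 2153, 6491 and 8048 CPM, and the 9 Kupffer markers to 22.5, 2221 and 1351 CPM, with Timd4, Marco, Adgre1 and Folr2 at 0 in IDD. Median depth was 4157, 7573 and 9479 UMIs. Their part in the result was not tested. At 4000 to 8000 UMIs the share was 1.34%, 1.76% and 2.21%, over 53, 34 and 17 cells, and 31 of 48 measured members were higher in IDD+HID, against 15.2% of 1288 genes.

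Hepatocyte-like cells had 69 of 73 measured members higher in IDD+HID, where 64.5% of 2832 genes were also higher, and 0 lower, against 11.8%. The members' count is read against that wide shift of the class, and with TMM scaling 23 members were higher, with DESeq2's size factors 28. The share over all genes was not taken under these 2 scalings. Rps14 stood at 235, 249 and 939 CPM and Rps24 at 309, 329 and 1147 CPM. Different clusters held most of the class: cluster 6, led by Fabp1 and Hamp, held 58 of 245, 197 of 1032 and 175 of 260 cells. Within cluster 6 the share was 3.39%, 4.47% and 4.20%, and 15 of 73 members were higher in IDD+HID, against 39.7% of 2129 genes, and 1 lower, against 8.41%. In clusters 2 and 7 ribosomal RNA and repeats made up 20.4 to 41.1% of UMIs. In IDD+HTF, 11 of 73 members were higher, against 17.8% of 3575 genes, and 23 lower, against 14.4%. Within cluster 6, 17 of 69 were higher there, against 20.4% of 1503 genes, and 6 lower, against 8.32%.

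Lymphocytes and Kupffer-like cells, with nearly equal sums, still had members on both sides in IDD+HTF. T-like cells had 12 of 77 higher, against 10.4% of 3497 genes, and 17 lower, against 11.7%. B-like cells had 11 higher, against 10.8% of 3161 genes, and 21 lower, against 8.26%. Kupffer-like cells had 10 higher, against 15.6% of 9652 genes, and 11 lower, against 5.76%. In IDD+HID fewer stood out. There T-like cells had 1 higher, against 15.6% of 6011 genes, and 6 lower, against 8.27%. B-like cells had 1 higher, against 18.9% of 6295 genes, and 7 lower, against 8.55%. Kupffer-like cells had 2 higher, against 19.7% of 10600 genes, and 1 lower, against 7.32%. In cluster 3 alone 1 was higher, against 14.4% of 8067 genes, and 1 lower, against 5.52%. In cluster 22 alone 8 were higher, against 35.9% of 8805 genes, and 4 lower, against 16.9%.

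Some members stood out in IDD+HTF in each class shown here. Rpl30, a large-subunit protein, stood at 631, 2360 and 1977 CPM in T-like, 158, 569 and 621 CPM in Kupffer-like, 91.9, 442 and 562 CPM in endothelial and 39.0, 325 and 515 CPM in stellate-like cells, lowest in IDD in each. Rps2 stood at 2561, 809 and 2420 CPM in T-like, 640, 258 and 857 CPM in Kupffer-like and 306, 168 and 721 CPM in endothelial cells, lowest in IDD+HTF in each. Rpl24, a late joiner of the large subunit, stood at 961, 271 and 616 CPM in T-like and 203, 77.4 and 192 CPM in Kupffer-like cells. Rpl7a stood at 531, 113 and 284 CPM in B-like and 180, 80.4 and 155 CPM in Kupffer-like cells. Rps13 was lower in both treated libraries, with 943, 354 and 409 CPM in T-like and 171, 83.1 and 99.3 CPM in Kupffer-like cells.

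As parts of the pool, 16 of 77 members had a larger part in IDD+HTF than in IDD in every class where they were measured, 36 had a smaller part in every class, and 25 were mixed. The classes of a library share the mouse, the digestion and the library preparation, so they are not independent. Over the classes measured, 6 for each gene named here but 5 for Rpl17, the median log2 ratio of the part was 1.73 for Rpl30 (range 1.43 to 1.90), 1.39 for Rps27 (1.15 to 1.60) and 1.23 for Rpl36a (1.13 to 1.40). At the other end it was -1.58 for Rps2 (-1.95 to -1.41), -1.53 for Rpl17, -1.52 for Rpl24 and -1.46 for Rpl7a. In IDD+HID against IDD 9 members had a larger part in every class, 20 a smaller part and 48 were mixed. Rpl30 led there as well, at 1.75 (1.34 to 2.19), and Rps13 was lowest at -1.02.

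The free RNA in droplets with 100 or fewer UMIs followed the same pattern. Of the 16 members with a larger part in every class of IDD+HTF, 15 also had a larger part in those droplets, and of the 36 with a smaller part, 34 did. Rpl30 differed there by 0.73, Rps27 by 0.83, Rpl36a by 1.08 and Rps2 by -0.68 on the log2 scale. Across the 77 members Spearman's rho between the median over classes and the droplets was 0.85 in IDD+HTF, and 0.64 in IDD+HID, where 6 of 9 and 18 of 20 had the same sign. Both sides come from the same libraries.

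**Figure D5:**
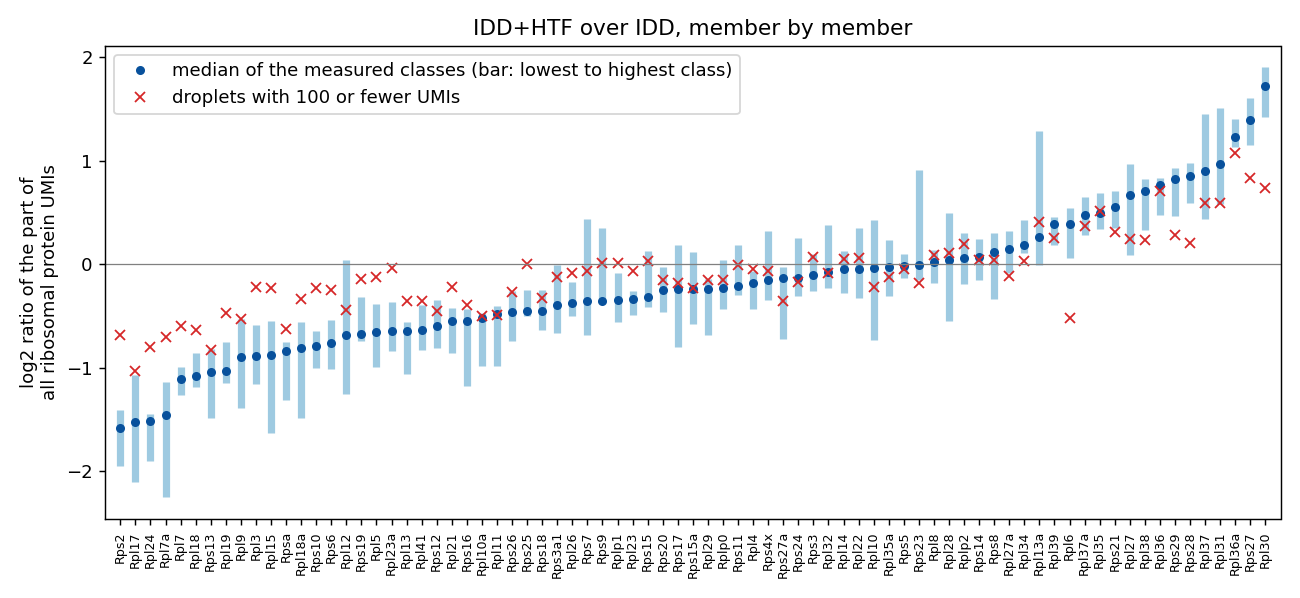
Log2 ratio of each member's part of all member UMIs, IDD+HTF over IDD (vertical axis), with the 77 members in order of their median (horizontal axis). Dots are the median of the measured classes, bars run from the lowest to the highest class and crosses are droplets with 100 or fewer UMIs. Rpl30 stands at 1.73 and Rps2 at -1.58, and their crosses at 0.73 and -0.68 have the same sign.

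The pattern in IDD+HTF ran with the length of the coding sequence. The 27 shortest members, of 75 to 405 coding bases, had a median log2 ratio of 0.19 and 15 were above 0. The 24 of 408 to 564 bases had a median of -0.46, with 4 above 0, and the 26 of 576 to 1257 bases had -0.38, with 4 above 0. Spearman's rho with coding length was -0.53, and with the share of 31-base words found elsewhere it was -0.22. In IDD+HID these were -0.10 and -0.25. Fragment lengths, read lengths and the date of each run are not given in the labels, and whether they differ between the libraries was not tested.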

How the data were processed

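The authors deposited whole-number UMI counts per barcode and gene, with no normalization and every barcode kept, per the files' values; the submitters' processing notes name GRCm38 and Seurat 4, while for the aligner, the counter and reads that match several genes the sources used here give nothing. The members and the gene lists were chosen with earlier results of these data known. A barcode was kept as a cell from 1000 UMIs and 300 genes upward, with no more than 20% of its UMIs mitochondrial. Doublets were called with Scrublet in scanpy 1.11.5 (expected share 6%) and removed. Leiden clustering (igraph 0.11.9, 2000 variable genes, 30 components, 15 neighbours, resolution 1, seed 1) left out 548 genes, the members and lists among them. Names for the 26 clusters came from 19 marker lists (at least 3 detected markers, pseudocount 20 CPM, mean log2 of at least 1, lead of at least 0.5).

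UMIs were summed per class and library as CPM. Depth ran from 34552858 to 75404660 UMIs per library. Classes compared had at least 50 cells in each library. Between classes, edgeR 4.0.16 (R 4.3.3) ran glmQLFit and glmQLFTest over 6 classes in 3 libraries, with class totals as the scale. The library was the block, and Benjamini-Hochberg adjustment was at 0.05. The block takes out differences between libraries that all classes share. The p-values and SEs thus measure how unevenly differences between classes ran over these 3 libraries, which includes the treatments. That spread was estimated from all 6 classes and drawn towards that of other genes. With 1 mouse per group it holds no spread between mice of a group. A trial on simulated counts had no library effects and 1 fixed spread, so its outcome does not carry over to these data. Between libraries no test was possible: a gene with at least 50 UMIs in the pair was measured and called at 1.5-fold, with exact conditional binomial intervals (scipy 1.17.1). Shares carry exact Clopper-Pearson intervals at 95%, CPM exact Poisson ones. Shared 31-base words were counted in the last 400 bases of 1 transcript per member against GENCODE M21.

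The named genes were 18 fixed members, the 5 highest and 5 lowest per comparison, the 3 widest gaps in the pool and up to 4 genes of each other list, of which the text gives a part. The genes said to lead a cluster were picked with their values in view. Alternatives were TMM and DESeq2 1.42.0 scaling, other filters on genes and cells, other clustering resolutions, no block, each library left out, and, added after seeing the data, cells of 4000 to 8000 UMIs and single clusters.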

Additional observations from a re-analysis of the deposited data

Results flagged for a closer look

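The members' share in hepatocyte-like cells of IDD+HTF was 0.892-fold that of IDD, while the other 5 classes compared were above 1-fold. Single clusters differ from this: hepatocyte-like cluster 6 was 1.32-fold and clusters 2 and 7 were 0.671- and 0.960-fold, while T-like clusters 10 and 17 were 0.934- and 0.995-fold, and the libraries fill these clusters unequally. In IDD+HID it was 0.976-fold in T-like and 0.920-fold in B-like cells, while the other 4 classes were above 1-fold. With 1 mouse per group the difference between classes was not tested.

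In droplets with 100 or fewer UMIs, which no comparison of classes used, the members held 1.87% of UMIs in IDD+HTF and 2.95% in IDD+HID, above the 1.18% of IDD. Over all barcodes of a library the shares were 1.58%, 2.57% and 3.97% in IDD, IDD+HTF and IDD+HID, in the same order.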

How the results depend on the processing

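The 6 class ratios of shares kept their direction under other limits on UMIs, mitochondrial share, doublets, resolution and denominator, except that T-like over B-like, 0.04 on the log2 scale, became -0.0427 with the mean of the cells' shares. Among the class tests, edgeR with TMM called 23 members lower in endothelial over Kupffer-like cells and 1 in stellate-like over endothelial cells, and DESeq2 called 36 and 2. In hepatocyte-like over endothelial cells TMM called 39 higher and 0 lower and DESeq2 44 higher and 0 lower, where class totals gave 42 lower. Resolution 2 called 1 member lower in stellate-like cells. Leaving out each library in turn gave 0 to 3 lower in endothelial over Kupffer-like cells, 0 to 1 in stellate-like cells and 3 to 61 in hepatocyte-like cells. The cause was not tested.

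No paired analysis was possible between the libraries because each group has 1 library with the same number. Between classes, the fit without the library block called 1 member lower in endothelial over Kupffer-like cells and 27 in hepatocyte-like over endothelial cells; it changed no other count of members between classes.

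For IDD+HTF over IDD, members lower in hepatocyte-like cells came to 14 of 59 with at least 200 UMIs, 35 with at most 10% mitochondrial UMIs and 6 in cluster 6 alone, against 23. In Kupffer-like cells of 4000 to 8000 UMIs 4 of 50 were lower, against 14.6% of 963 genes. In that band 14 of 76 were higher in endothelial cells, against 11.0% of 7323 genes, and 18 of 51 in stellate-like cells, against 13.5% of 1709. For IDD+HID over IDD in T-like cells, 6 members were lower in the main setting and 3 at resolution 0.5. With TMM, with DESeq2 scaling and with at most 10% mitochondrial UMIs 2 were lower. In T-like cells of 4000 to 8000 UMIs 10 of 77 were lower, against 8.30% of 3757 genes. In cluster 17 alone 11 of 77 were lower, against 8.06% of 4961 genes. DESeq2 scaling gave 4 lower in B-like cells. In Kupffer-like cells, where 2 were higher, the count was 1 without mitochondrial genes and ribosomal RNA in the total, with at most 10% mitochondrial UMIs, at resolution 2 and in cluster 3 alone. It was 6 with doublets kept and at resolution 0.5. In Kupffer-like cells of 4000 to 8000 UMIs 8 of 58 were higher, against 25.2% of 1389 genes. That band gave 11 of 74 higher in the endothelial class, against 12.6% of genes, and 31 of 48 in the stellate-like class, against 15.2%. Cluster 11 alone gave 25 of 77 in the endothelial class, against 23.0%. Hepatocyte-like cells gave 23 higher with TMM, 28 with DESeq2 scaling and 15 of 73 in cluster 6 alone, against 39.7% of genes. For counts between libraries, shares over all genes were taken only in the main setting, in bands of UMIs and in single clusters. Of the planned values of the main results 226 stayed the same, 28 moved and 2 reversed. Same means within 1 standard deviation over the libraries for shares and within 1.5 times for counts. Of the other planned values, among them parts of the pool, paralogs and the smaller of each pair of counts, 145 stayed the same and 8 moved.

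Counting error is small for summed shares, but low members such as Rpl5 and Rpl12 rest on few UMIs in stellate-like and hepatocyte-like cells, and 1 mouse per group leaves differences between mice without an error.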
